A study of Mus musculus with 4 samples.

Results

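A group of 9 genes that serve the oxidation of fatty acids outside the core mitochondrial spiral was examined in adult mouse hearts. The group holds *Ehhadh*, *Acaa1a*, *Hsd17b4*, *Abcd3* and *Dhrs4*, whose proteins belong to the peroxisome, and *Ech1*, *Eci2*, *Decr1* and *Etfdh*, which encode auxiliary enzymes and the electron acceptor that serve the breakdown of unsaturated fatty acids and the handover of electrons in mitochondria. The genes were taken by symbol from the table of expression values, which lists 55401 genes, and all 9 were found and measured in every heart. The hearts came from 4 mice aged 8 weeks on a C57BL/6N background, 2 wild-type and 2 *Ctcf* heterozygous (*Ctcf* +/R567W), with 1 library per mouse. Heterozygous mice carry the R567W substitution, made by CRISPR/Cas9 editing, on one allele of *Ctcf*, which encodes a DNA-binding organiser of chromatin loops. The edit is carried by the whole animal and not by heart muscle alone.

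Peroxisomes shorten very long and branched fatty acids by a β-oxidation spiral of their own, in which a transporter in the membrane brings in the acyl-CoA, an oxidase makes the first double bond, a bifunctional enzyme hydrates and dehydrogenates, and a thiolase cleaves the chain. Natural unsaturated fatty acids carry double bonds that the standard spiral cannot process, and isomerases and a reductase rearrange them first. Electrons taken from acyl-CoA in mitochondria pass to the electron transfer flavoprotein and from there, through its oxidoreductase in the inner membrane, to ubiquinone. Heart muscle draws most of its energy from fatty acids, and many genes of these pathways are known targets of the nuclear receptors PPARα and ERRα.

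The sequences just upstream of 5 of the genes are shown because they cover the largest genotype difference (*Dhrs4*), a gene that was lower in heterozygous hearts and one that was not with the same kinds of motif (*Ehhadh* and *Acaa1a*), and another such pair that shares a longer motif (*Etfdh* and *Abcd3*). They are RefSeq sequences of GRCm38.p6, the build of the expression data (mm10), on the strand of the gene, 5′ to 3′, with capitals on matches to any of the motifs searched. The stretches run from 130 bases before the RefSeq start site to the base before it, except for *Etfdh*, where 30 bases around the match are given, at chr3:79628876-79628905 on the minus strand. The *Dhrs4* stretch is chr14:55478628-55478757 (plus strand), *Ehhadh* chr16:21787835-21787964 (minus), *Acaa1a* chr9:119341164-119341293 (plus) and *Abcd3* chr3:121815303-121815432 (minus). The *Dhrs4*, *Ehhadh* and *Abcd3* stretches lie upstream of the gene, that of *Acaa1a* lies in an intron of transcripts that start further upstream, and that of *Etfdh* lies within an exon of an alternative *Etfdh* transcript.
Dhrs4: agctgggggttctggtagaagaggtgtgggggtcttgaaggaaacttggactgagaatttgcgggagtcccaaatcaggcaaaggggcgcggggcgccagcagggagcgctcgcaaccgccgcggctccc
Ehhadh: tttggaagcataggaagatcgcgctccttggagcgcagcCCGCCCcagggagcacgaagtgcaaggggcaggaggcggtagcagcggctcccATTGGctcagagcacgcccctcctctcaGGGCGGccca
Acaa1a: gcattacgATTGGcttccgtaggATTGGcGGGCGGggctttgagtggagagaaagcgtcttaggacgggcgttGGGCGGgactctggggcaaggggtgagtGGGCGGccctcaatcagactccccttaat
Etfdh: tgcttctaggGCGCATGCGCacacgcgaga
Abcd3: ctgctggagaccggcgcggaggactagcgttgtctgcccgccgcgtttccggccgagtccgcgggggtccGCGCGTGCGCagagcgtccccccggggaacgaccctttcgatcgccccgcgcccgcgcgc

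Windows from 250 bases before to 50 bases after the RefSeq start site were given for 7 of the 9 genes, 8 windows in all, and both strands were searched. The window of *Dhrs4* matched none of the 7 motifs. The NRF-1 motif, GCGC and TGCGC with 1 free base between them, bound by a regulator of nuclear genes for mitochondrial proteins, matched in *Abcd3* and *Etfdh*, beginning at -60 and -128 from the start site, and it is present in 4.60% of the 32851 windows of the table. The GC box GGGCGG matched in *Acaa1a*, *Ech1*, *Eci2*, *Ehhadh* and *Etfdh* (35.7% of all windows) and the CCAAT box in *Acaa1a*, *Eci2*, *Ehhadh* and *Etfdh* (37.4% of all windows). No window of these genes matched the nuclear receptor core AGGTCA (16.3% of all windows), the DR1 element bound by PPARα, a repeat of AGGNCA with 1 free base between the copies (0.381%), the ERR element TCAAGGTCA (0.423%), which contains the nuclear receptor core, or the CTCF core, CCA, AGG and GGC in a row with 2 and then 1 free bases between them (0.916%). A match is a match of letters in this window only, and sites outside it were not searched. *Decr1* and *Hsd17b4* were not matched.

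Expression was deposited as TPM, the relative abundance of each transcript per unit of length, which sums to one fixed total in each library. The number of reads behind a TPM value is not kept, so depth and counting error are unknown. Since 61.1% to 68.6% of the total lay on genes of the mitochondrial genome (mt-), the libraries were brought to a common level with median-of-ratios factors. The factors were 0.818 to 1.26, and all values below are the scaled TPM unless stated otherwise. Heterozygous replicate 1 had the highest mt- share and the lowest factor. It also had the fewest genes above 0, 19916 against 20136 to 20633. Correlations between the libraries were 0.966 to 0.981. *Ctcf* itself stood at 6.12 and 6.02 in wild-type and 7.51 and 5.76 in heterozygous hearts, and differed by 0.10 on the log2 scale (adjusted p = 0.814 from limma), and the values do not show which allele the RNA came from.

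The comparison asked whether these genes differed between wild-type and *Ctcf* heterozygous hearts at 8 weeks. Levels of 6 of the 9 genes (*Dhrs4*, *Etfdh*, *Ech1*, *Ehhadh*, *Decr1* and *Eci2*) were lower in both heterozygous hearts than in both wild-type hearts, where 23.3% of all 10036 tested genes showed that order. *Acaa1a* was higher in both heterozygous hearts, as were 23.7% of all tested genes, and the genotypes overlapped for *Abcd3* and *Hsd17b4*. The median log2 fold change of the 9 genes, heterozygous minus wild-type, was -0.35, beside -0.00 over all tested genes. It was -0.21 without heterozygous replicate 1 and -0.20 when 5 in place of 1 was added before the log. In whole hearts, fewer cells of a type and less RNA per cell cannot be told apart. None of the 9 passed an adjusted p under 0.05 in the limma fit, which called 2 genes lower and 0 higher in all (0.0199%). At an unadjusted p under 0.05, 3 of the 9 were lower (*Dhrs4*, *Etfdh* and *Ehhadh*), as were 573 of all tested genes (5.71%), and 0 were higher, as were 651 of all tested genes (6.49%). Fold changes were computed on log2(scaled TPM + 1), where the added 1 shrinks differences between low values such as those of *Ehhadh*. With 2 mice per genotype an exact permutation test of 1 gene cannot give a p under 0.333. The limma p values, standard errors and intervals rest on a spread that is drawn in part from all tested genes. They are not the spread of that gene alone, and they measure no spread beyond that between these mice.

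**Figure D1:**
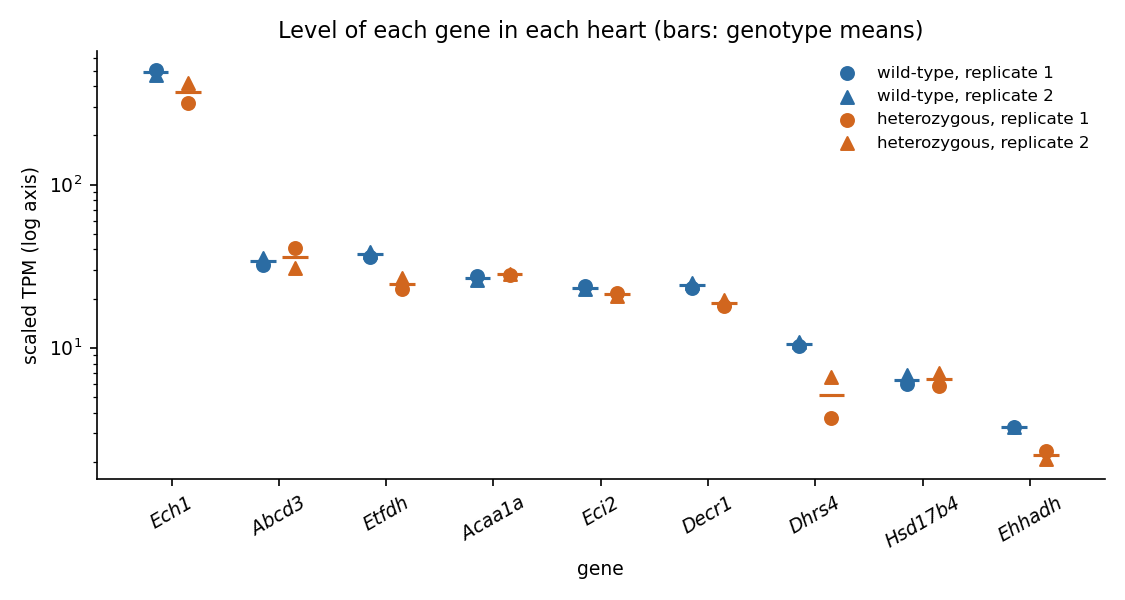
Scaled TPM (log axis) of each of the 9 genes in each heart, ordered by level, with circles for replicate 1, triangles for replicate 2 and bars for genotype means. *Ech1* stands far above the others, at 12.2 times the mean of *Abcd3*, and *Dhrs4*, *Etfdh* and *Ehhadh* have both heterozygous hearts clearly under both wild-type hearts.

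*Abcd3* encodes the peroxisomal membrane transporter long known as PMP70, an abundant marker of the organelle. The gene lies at chr3:121758774-121815302 on the minus strand (GENCODE, mm10), and its longest coding transcript has 23 exons and 3489 bases. Its level was 32.3 and 35.4 in wild-type hearts and 41.1 and 30.8 in heterozygous hearts (here and in what follows, replicate 1 is given before replicate 2). The heterozygous hearts held both the highest and the lowest value. The log2 fold change was 0.07 (standard error 0.20, 95% interval -0.40 to 0.54, adjusted p = 0.893 from limma), and it was -0.13 without heterozygous replicate 1.

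*Ehhadh* encodes the L-bifunctional protein, which hydrates and then dehydrogenates straight-chain enoyl-CoA, and it is a classical target of PPARα. The gene lies at chr16:21761287-21787807 on the minus strand, with 7 exons. It stood at 3.26 and 3.25 in wild-type hearts and at 2.32 and 2.07 in heterozygous hearts. The wild-type hearts were nearly equal and both heterozygous hearts lay under them, at 67.4% of the wild-type mean (3.26 ± 0.00627 against 2.197 ± 0.180, SD, n = 2 each). The log2 fold change was -0.41 (standard error 0.13, 95% interval -0.73 to -0.10), and it did not pass the adjustment over all genes (adjusted p = 0.346 from limma). *Ehhadh* had the lowest level of the 9 genes, and its deposited values were 3.55 and 4.10 TPM in wild-type and 1.90 and 1.87 TPM in heterozygous hearts.

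*Hsd17b4* (chromosome 18) encodes the D-bifunctional protein, which does the same pair of reactions on branched and very long chains and on bile acid precursors. Its level was 5.97 and 6.79 in wild-type and 5.82 and 6.997 in heterozygous hearts. The heterozygous values enclosed the wild-type values, and the log2 fold change was 0.00 (standard error 0.16, 95% interval -0.37 to 0.38, adjusted p = 0.993 from limma). *Ehhadh* and *Hsd17b4*, which encode the alternative bifunctional enzymes of the peroxisomal spiral, thus differed in order: the genotypes separated for the first and overlapped for the second. A test of the difference between their fold changes was not run.

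*Acaa1a* encodes the peroxisomal thiolase, which cleaves the chain, from chr9:119339676-119350299 on the plus strand. It stood at 27.4 and 26.1 in wild-type hearts and 28.1 and 28.4 in heterozygous hearts. Both heterozygous hearts lay above both wild-type hearts by a small margin, at 106% of the wild-type mean, with a log2 fold change of 0.08 (standard error 0.16, 95% interval -0.30 to 0.45, adjusted p = 0.860 from limma). Its transcript is 96.6% identical to that of *Acaa1b*, the second mouse thiolase gene, which was listed at 0.02 to 0.10 TPM, and with the levels of both genes summed the log2 fold change was 0.07. *Acaa1a* also shares 290 exon bases with *Myd88* on the opposite strand, which was listed at 3.46 to 4.23 TPM.

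*Dhrs4* encodes a peroxisomal NADPH-dependent reductase of retinal and other carbonyl compounds, an enzyme beside rather than within the β-oxidation spiral. Its level was 10.2 and 10.8 in wild-type hearts and 3.72 and 6.61 in heterozygous hearts. Both heterozygous hearts were low and they differed from each other more than the wild-type hearts did, with means of 10.5 ± 0.427 and 5.16 ± 2.04 (SD, n = 2 each), so that the heterozygous mean was 49.3% of the wild-type mean. This was the largest difference among the 9 genes, with a log2 fold change of -0.94 (standard error 0.23, 95% interval -1.50 to -0.38, adjusted p = 0.327 from limma). Without heterozygous replicate 1, the lowest heart, it was -0.60. The gene lies at chr14:55478758-55490340 on the plus strand, and its upstream stretch is the one without a match printed above.

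*Ech1* encodes a dienoyl-CoA isomerase found in both mitochondria and peroxisomes, and it was by far the most abundant of the 9 transcripts. The gene lies at chr7:28825217-28832247 on the plus strand, with 10 exons in its longest coding transcript of 1267 bases. It stood at 502.3 and 470.4 in wild-type hearts and 316.3 and 419.6 in heterozygous hearts. Both heterozygous hearts were lower, and the gap between them was wider than that between the genotypes' nearest hearts. The log2 fold change was -0.42 (standard error 0.22, 95% interval -0.93 to 0.10, adjusted p = 0.465 from limma), and it was -0.21 without heterozygous replicate 1 and -0.62 without heterozygous replicate 2.

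*Eci2* encodes an enoyl-CoA isomerase that is likewise found in both organelles and moves a double bond into the position the spiral can use. The gene lies at chr13:34977748-35027096 on the minus strand and has 14 annotated transcripts. Its level was 23.7 and 22.9 in wild-type and 21.6 and 20.8 in heterozygous hearts. The heterozygous hearts were lower by a small margin, at 90.8% of the wild-type mean, with a log2 fold change of -0.13 (standard error 0.15, 95% interval -0.50 to 0.23, adjusted p = 0.730 from limma). Of the similar transcripts, *Eci3* (89.1% identical) and the pseudogene *Gm15287* (95.9%) were listed at no more than 0.03 and 0.15 TPM.

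*Decr1* encodes the mitochondrial dienoyl-CoA reductase, the enzyme that removes the extra double bond with NADPH, from chr4:15917240-15945507 on the minus strand. It was measured at 23.4 and 25.01 in wild-type hearts and 18.1 and 19.5 in heterozygous hearts. Both heterozygous hearts were lower, at 77.7% of the wild-type mean (24.2 ± 1.16 against 18.8 ± 0.959, SD, n = 2 each), and the log2 fold change was -0.35 (standard error 0.16, 95% interval -0.72 to 0.03, adjusted p = 0.425 from limma).

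*Etfdh* encodes the oxidoreductase that passes electrons from the electron transfer flavoprotein to ubiquinone, from chr3:79603788-79629500 on the minus strand. Its level was 35.9 and 38.7 in wild-type hearts and 22.8 and 26.6 in heterozygous hearts. The genotypes were well apart, with means of 37.3 ± 1.98 and 24.7 ± 2.65 (SD, n = 2 each), the heterozygous mean being 66.2% of the wild-type mean. The log2 fold change was -0.58 (standard error 0.17, 95% interval -0.98 to -0.17, adjusted p = 0.341 from limma). Without each heart in turn it ranged from -0.69 to -0.47. *Etfdh* shares 278 exon bases with 4930579G24Rik on the opposite strand, which was listed at no more than 0.140 TPM. Less similar transcripts of other genes include *Gm44087*, 91.7% identical over 697 bases. It was listed at 7.92 and 9.39 TPM in wild-type and 9.13 and 8.35 TPM in heterozygous hearts.

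**Figure D2:**
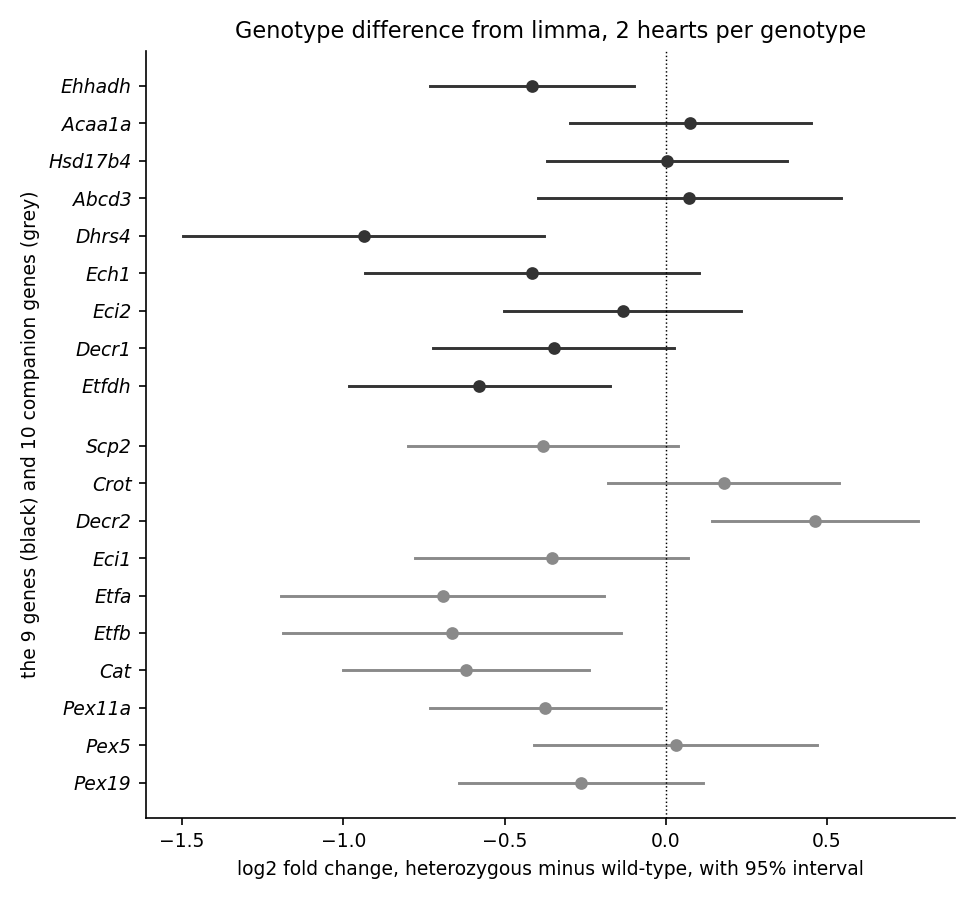
Log2 fold change (heterozygous minus wild-type, x axis) with its 95% interval from limma for the 9 genes (black) and 10 tested companion genes (grey). The intervals of *Dhrs4*, *Etfdh* and *Ehhadh* lie below 0 before adjustment, while those of *Abcd3*, *Hsd17b4* and *Acaa1a* are centred near 0.

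Levels were also compared between the genes, since TPM are per transcript length. By the mean scaled TPM over the 4 hearts the order was *Ech1*, *Abcd3*, *Etfdh*, *Acaa1a*, *Eci2*, *Decr1*, *Dhrs4*, *Hsd17b4* and *Ehhadh*. *Ech1* was 12.2 times as high as *Abcd3*, the next gene, and made up 75.6% and 73.6% of the summed level of the 9 genes in wild-type hearts and 68.8% and 74.7% in heterozygous hearts. *Abcd3* and *Etfdh*, *Etfdh* and *Acaa1a*, *Eci2* and *Decr1*, and *Dhrs4* and *Hsd17b4* were neighbours whose values overlapped over the 4 hearts. The order itself differed by genotype for some of them. Within each wild-type heart *Etfdh* lay above both *Abcd3* and *Acaa1a*, and within each heterozygous heart it lay below both. *Dhrs4* lay above *Hsd17b4* in both wild-type hearts and below it in each heterozygous heart.

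The balance between the peroxisomal genes and the auxiliary genes was read within each heart, where the scaling between libraries cancels. The summed level of the 5 peroxisomal genes was 79.1 and 82.3 in wild-type and 81.1 and 74.9 in heterozygous hearts, so the genotypes overlapped. *Abcd3* and *Acaa1a* made up most of that sum. Of its lower-expressed genes, *Dhrs4* and *Ehhadh* stood at 49.3% and 67.4% of the wild-type mean and *Hsd17b4* at 100%. The summed level of the 4 auxiliary genes was 585.4 and 557.1 in wild-type and 378.8 and 486.5 in heterozygous hearts, both heterozygous hearts being lower. The ratio of the first sum to the second was 0.135 and 0.148 in wild-type hearts and 0.214 and 0.154 in heterozygous hearts, both heterozygous ratios being the higher. The difference of the means was 0.36 on the log2 scale, with an exact permutation p = 0.333 (two-sided), the smallest that 2 hearts against 2 allow. It was 0.12 without heterozygous replicate 1, 0.60 without heterozygous replicate 2 and 0.08 when mean log2 values took the place of sums. *Ech1* sets the denominator, and its product and that of *Eci2* occur in both organelles. With both left out, the ratio was 1.33 and 1.29 in wild-type and 1.98 and 1.62 in heterozygous hearts. With both counted as peroxisomal it was 10.2 and 9.03 in wild-type and 10.2 and 11.2 in heterozygous hearts.

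**Figure D3:**
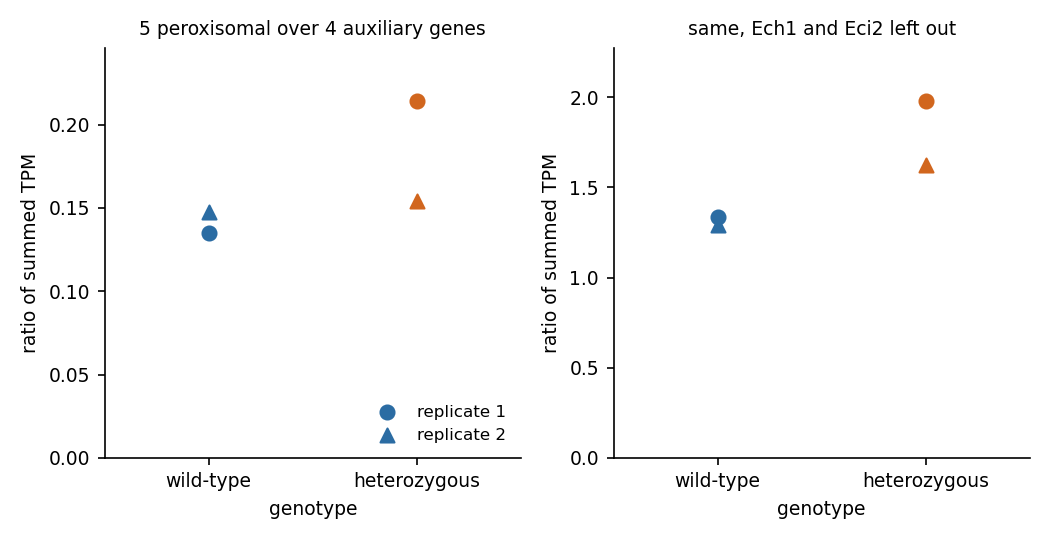
Ratio of summed TPM of the 5 peroxisomal genes to that of the 4 auxiliary genes in each heart (left), and the same with *Ech1* and *Eci2* left out (right), with circles for replicate 1 and triangles for replicate 2. Both heterozygous hearts lie above both wild-type hearts in each panel, but heterozygous replicate 2 lies close to the wild-type hearts on the left (0.154 against 0.148).

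Other genes of the same pathways were counted from lists of known pathway members. Of 22 other genes of peroxisomal β-oxidation, 13 were tested, 3 were lower and 2 were higher in both heterozygous hearts, and the median log2 fold change was -0.06. For this list and the next 3, the shares over all tested genes are again 23.3% lower and 23.7% higher. *Scp2*, the sterol carrier protein and thiolase of branched chains, was lower in both heterozygous hearts (52.5 and 56.5 against 38.5 and 44.9), with a log2 fold change of -0.38 (adjusted p = 0.426 from limma). *Decr2*, the peroxisomal dienoyl-CoA reductase and the counterpart of *Decr1*, was higher in both heterozygous hearts (2.82 and 2.60 against 4.28 and 3.94), with a log2 fold change of 0.46 (adjusted p = 0.336 from limma). *Crot*, which makes carnitine esters for export from the peroxisome, had a log2 fold change of 0.18. *Crat*, *Nudt7* and *Ephx2*, which act on carnitine esters, CoA and epoxides, had log2 fold changes of -0.17 each. *Acaa1b*, *Abcd2* and *Eci3* were under the filter on low values and were not tested.

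Of 21 genes of peroxisomal α-oxidation, ether lipid synthesis and redox balance, 16 were tested, 7 were lower and 1 was higher in both heterozygous hearts, and the median log2 fold change was -0.16. The first enzymes of α-oxidation lay on opposite sides. *Phyh*, which hydroxylates phytanoyl-CoA, was 46.9 and 57.7 in wild-type and 28.4 and 36.7 in heterozygous hearts (log2 fold change -0.67, adjusted p = 0.341 from limma), whereas *Hacl1*, the lyase that acts next, was 1.92 and 2.83 in wild-type and 5.54 and 4.15 in heterozygous hearts (0.80, adjusted p = 0.318). The difference between these genes was not tested. *Cat*, the catalase that removes the hydrogen peroxide made by peroxisomal oxidases, was 10.1 and 11.6 in wild-type and 6.17 and 7.30 in heterozygous hearts, 61.9% of the wild-type mean, with a log2 fold change of -0.62 (adjusted p = 0.331 from limma). *Pxmp4*, a peroxisomal membrane protein, was at -0.41.

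Of 17 peroxins, the factors that build the organelle and import its proteins, 14 were tested, 6 were lower and 2 were higher in both heterozygous hearts, and the median log2 fold change was -0.24. *Pex11a*, which promotes peroxisome division and responds to PPARα, was 6.51 and 7.07 in wild-type and 4.56 and 5.49 in heterozygous hearts (log2 fold change -0.37, adjusted p = 0.396 from limma). The import receptor *Pex5* overlapped at 0.03, and *Pex19*, the chaperone of membrane proteins, was at -0.26. *Pex14*, the docking protein for the import receptor, was at -0.38, while *Pex10* and *Pex13*, a ubiquitin ligase and a docking partner, were at 0.49 and 0.39.

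Of the 9 auxiliary and electron transfer partners all were tested, 6 were lower and 1 was higher in both heterozygous hearts, and the median log2 fold change was -0.35, with *Decr2* counted in this list as well. *Etfa* and *Etfb*, the subunits of the flavoprotein that feeds *Etfdh*, were lower in both heterozygous hearts. *Etfa* was 45.8 and 57.6 in wild-type and 27.5 and 35.9 in heterozygous hearts, and *Etfb* was 339.1 and 370.7 in wild-type and 192.5 and 259.6 in heterozygous hearts. Their log2 fold changes were -0.69 and -0.66 (adjusted p = 0.341 and 0.352 from limma), beside -0.58 for *Etfdh*. *Eci1*, the mitochondrial enoyl-CoA isomerase, was at -0.35, beside -0.13 for *Eci2*. *Hsd17b10*, a mitochondrial dehydrogenase of short branched chains, was at -0.63, and *Uqcrfs1*, the iron-sulphur subunit of the complex that accepts electrons from ubiquinol, was at -0.62. *Coq10a*, which binds ubiquinone, was at -0.21. No gene of the 4 lists passed an adjusted p under 0.05. At an unadjusted p under 0.05, 4 of these 9 partners, 4 of the 16 genes of α-oxidation and related functions, 2 of the 14 peroxins and 0 of the 13 genes of β-oxidation were lower (5.71% of all tested genes), and 1, 1, 2 and 1 were higher (6.49%).

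**Figure D4:**
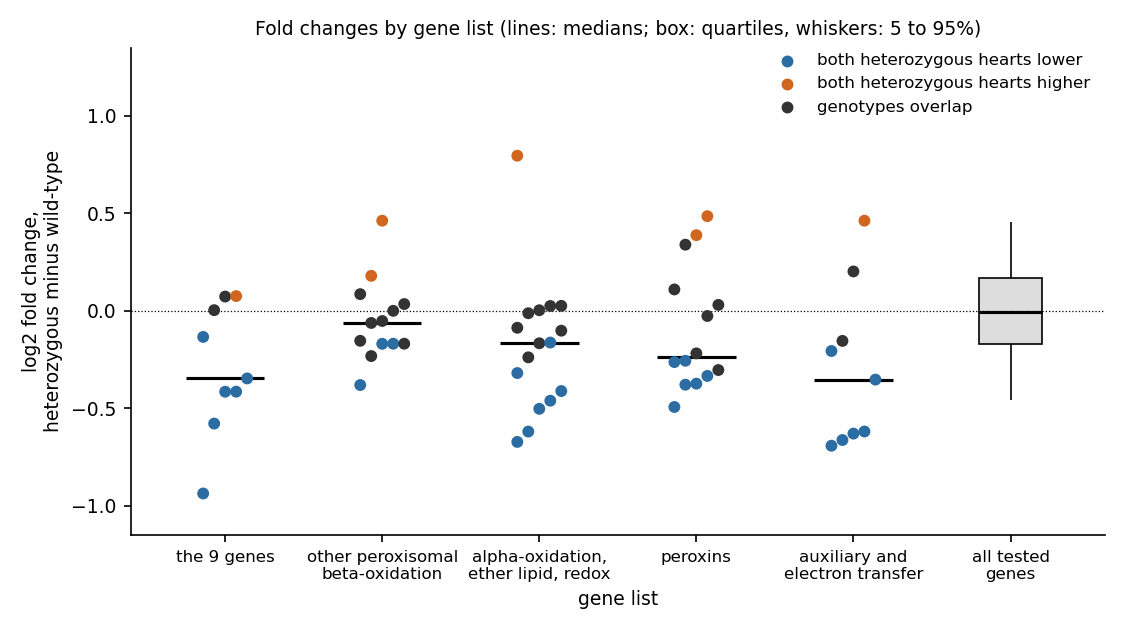
Log2 fold change (heterozygous minus wild-type, y axis) of each tested gene in the 9 genes and the 4 companion lists, coloured by whether the genotypes were separate, with a line at each list's median. The box shows the quartiles of all 10036 tested genes, from -0.17 to 0.17, with whiskers from the 5th to the 95th percentile, and of the 9 genes *Dhrs4* and *Etfdh* lie below the lower whisker at -0.46.

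The scaling between libraries set which side of 0 some genes lay on. With TPM as deposited all 9 genes were lower in both heterozygous hearts, where 67.8% of all tested genes were, and with mt- genes removed 8 of 9 were, where 58.9% of all genes were. The median of all genes was then -0.35 and -0.31, respectively, so values are read against it. At an unadjusted p under 0.05, 3338 genes were lower and 52 higher with the deposited TPM, and 2860 and 111 without mt- genes, against 573 and 651 here. Relative to that median, *Acaa1a*, *Abcd3* and *Hsd17b4*, which turned negative on both scales, stayed within 0.06 of it on the log2 scale, and the median of the 9 genes differed from it by -0.39 and -0.38, beside -0.34 with the scaling used here. *Ehhadh*, *Dhrs4*, *Ech1*, *Eci2*, *Decr1* and *Etfdh* had negative log2 fold changes under every scaling tried.

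**Figure D5:**
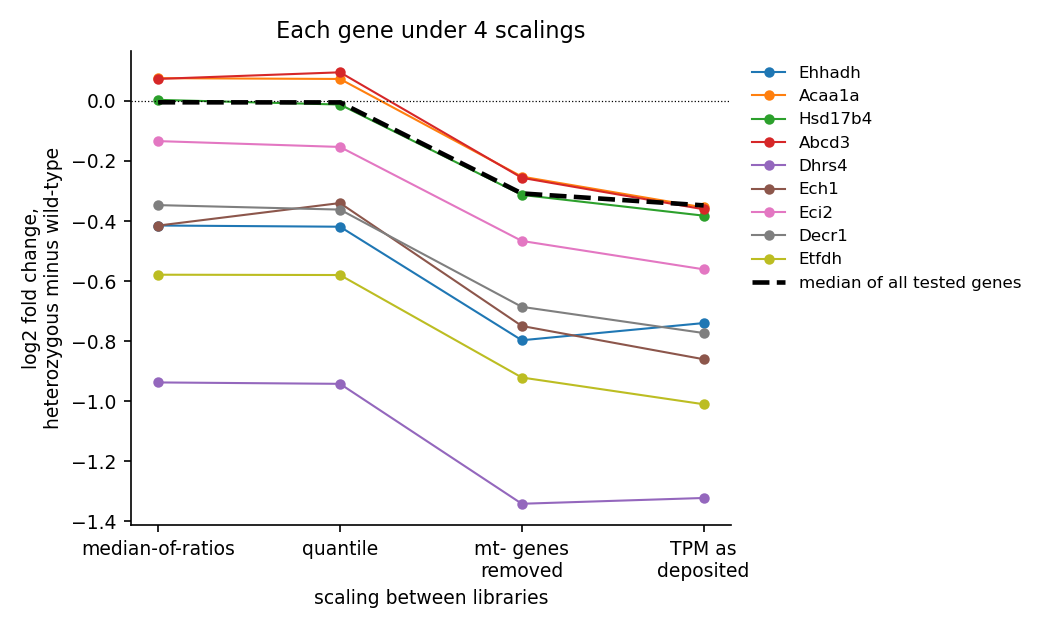
Log2 fold change (heterozygous minus wild-type, y axis) of each of the 9 genes under 4 scalings (x axis), with the median of all tested genes as a dashed line. *Acaa1a*, *Abcd3* and *Hsd17b4* follow the dashed line, whereas the other 6 genes lie below it under each scaling.

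The tested genes outside the 9 whose centred log2 values over the 4 hearts lay nearest to the median profile of the 9 genes, among 4603 genes above a mean of 5 TPM, were *Tango2*, *Cdc42*, *Jup*, *Amt* and *Twf2*. Their Euclidean distances from it were 0.0162, 0.0326, 0.0330, 0.0368 and 0.0374, over 4 hearts. *Tango2* stood at 30.5 and 31.2 in wild-type hearts and 24.7 and 25.6 in heterozygous hearts. Each of the 5 was lower in both heterozygous hearts, as the profile is. The likeness rests on 4 values that share their libraries and scaling, and it is given as a description.

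The labelled tissue was checked against its markers. The summed level of 7 cardiomyocyte markers, all well detected, was 22736 and 21342 in wild-type and 18709 and 22195 in heterozygous hearts, and heterozygous replicate 1, which was also lowest for *Dhrs4*, *Ech1*, *Decr1* and *Etfdh*, had the lowest sum. *Myh6* carried much of that sum, with 9133 to 10554 over the hearts. Of the 7 markers 3 were lower in both heterozygous hearts, none was higher in both and 4 overlapped, with a median log2 fold change of -0.18. The lower ones were the contractile genes *Myl2* (-0.39) and *Actc1* (-0.46) and *Pln*, the inhibitor of the calcium pump (-0.48), beside -0.35 for the median of the 9 genes. The 4 atrial markers summed to 806.4 and 2354 in wild-type and 1918 and 3281 in heterozygous hearts. Their log2 fold changes were 0.72 to 0.95, and the genotypes overlapped for each. The 5 erythroid markers summed to 929.8 and 987.0 in wild-type and 965.4 and 2120 in heterozygous hearts. Their log2 fold changes were 0.26 to 0.63, and only *Hba-a2* was higher in both heterozygous hearts. The 5 endothelial markers summed to 58.5 and 61.0 in wild-type and 50.2 and 55.2 in heterozygous hearts, so both heterozygous hearts were lower, the order of the 6 lower genes above. Of these markers *Pecam1* (log2 fold change -0.43, adjusted p = 0.394 from limma) and *Kdr* (-0.21) were lower in both heterozygous hearts, and the other 3 overlapped. Sums of fibroblast markers (53.1 to 78.5), mural markers (49.8 to 73.1) and immune markers (7.29 to 8.52) overlapped between genotypes. Within them, fibroblast *Dcn* (-0.56) and mural *Acta2* (-0.54) and *Myh11* (-0.14) were lower in both heterozygous hearts. The other tested markers of these lists overlapped. Of 8 adipocyte markers 6 were under 1 TPM in every heart. *Cfd* was 1.87 and 0.94 TPM in wild-type and 0.07 and 0.53 TPM in heterozygous hearts, too low to be tested. *Cidea* overlapped (0.04). Of 7 skeletal muscle markers *Myh1*, *Myh2*, *Myh4* and *Myf6* were listed at 0 in all hearts. *Tnni2* was lower in both heterozygous hearts (-0.31) and *Ckm* overlapped (-0.21). *Tnnt3*, not tested, was 0.88 and 0.46 TPM in wild-type and 0.62 and 1.57 TPM in heterozygous hearts. The part of these differences in the values of the 9 genes was not tested.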

How the data were processed

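RNA from 4 hearts was captured on mRNA beads and made into libraries with the VAHTS Universal V8 kit. The authors deposited TPM from RSEM (1.2.28), after alignment to mm10 in STAR (2.7.4a) of reads trimmed by Trim Galore (0.6.10). The annotation release is not given in the sources used here. The read counts that the authors tested were not used here. Genotypes follow the labels, and no column was left without a sample.

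TPM were divided by median-of-ratios factors over tested genes above 0 in every library, and log2 was taken after adding 1. In limma (3.58.1, R 4.3.3), lmFit and eBayes with trend compared the genotypes for 10036 genes whose mean TPM was 1 or more (two-sided, Benjamini-Hochberg). All adjusted p values are from this fit, with a call threshold of 0.05. Scripts were tested on simulated data. Positions are those of GENCODE on mm10, and similar transcripts were found with BLAST (2.17.0). Those at 95% identity over 80% of the length were marked near-identical, and less similar ones were kept as well.

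The 9 genes and all lists were chosen with earlier results of these data known. Named companions were a fixed set of 15 genes and up to 3 further genes with the smallest p per list, and some of them are not reported here. Same-numbered hearts are different mice, and the correlation of their deviations from the genotype means was 0.101. Alternatives were other pseudocounts, filters, scalings, eBayes settings, a replicate block and leaving out each heart.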

Additional observations from a re-analysis of the deposited data

How the results depend on the processing

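Of 136 alternative values for the log2 fold changes of the 9 genes, 125 kept their direction and side of the threshold, 11 turned direction and none passed an adjusted p under 0.05 (0.0634 to 1.0 in limma). *Acaa1a* turned to -0.35 (TPM as deposited) and -0.25 (mt- genes removed), *Abcd3* to -0.36 and -0.26 under these scalings, and *Hsd17b4*, whose value was near 0, to -0.38 and -0.31. *Hsd17b4* also turned to -0.012 with quantile normalization and to -0.0032 with factors over all genes above 0, an alternative chosen after seeing the data. Leaving out 1 heart gave *Abcd3* values from -0.13 to 0.27 (0.07 with all hearts) and *Hsd17b4* values from -0.11 to 0.12. The median of the 9 genes was -0.74 and -0.69 under the same scalings, -0.20 with a pseudocount of 5 and -0.24 at a mean TPM of at least 5, which left out *Ehhadh*, and from -0.37 to -0.21 without 1 heart, the smallest without heterozygous replicate 1. The number of those genes with every heterozygous heart used under every wild-type heart used was 5 (of 8, at a mean TPM of at least 5) to 9 (TPM as deposited). Over all tested genes, the share in that order was 18.2% (no filter) to 67.8% (TPM as deposited). Over all genes, calls lower and higher were 2 and 0, against 11 and 2 (TPM as deposited), 12 and 2 (mt- genes removed), 4 lower with a pseudocount of 0.1, 0 of either direction with no filter (945 lower and 1189 higher at an unadjusted p under 0.05, limma) and 2 higher with robust eBayes. Without 1 heart, 4 to 13 genes were called lower and 0 to 11 higher, where the lone heart of a genotype is assumed to vary like the others. The samples share only a replicate number, with 2 numbers and different mice. A fit with that number as a replicate block called 7 genes lower and 3 higher, none of them among the 9, and the log2 ratio of peroxisomal to auxiliary genes differed by 0.66 and 0.06 between same-numbered hearts. That ratio kept its direction under each alternative, from 0.08 with mean log2 values to 0.60 without heterozygous replicate 2. No depth is known, so the share of the spread that is counting error cannot be given.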
